A study of Mus musculus with 2 samples.

Results

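The 10 genes described here, *Arg1*, *Nos2*, *Mrc1*, *Cd163*, *Trem2*, *Gpnmb*, *Retnla*, *Chil3*, *Folr2* and *Lyve1*, are widely used to name the state of a macrophage. They were chosen by gene symbol, and each matched 1 of the 33696 genes that both libraries list. Macrophages take up dead cells and debris in a wound and send signals to the cells that rebuild it. Those that settle in a tissue before or around birth commonly carry scavenging receptors such as *Mrc1*, *Cd163*, *Folr2* and *Lyve1*, while monocytes arrive from the blood after injury and can turn into macrophages in place. *Nos2* and *Arg1* encode enzymes that use the same amino acid, arginine, and have long been read as the opposite ends of macrophage activation, *Nos2* for killing of microbes and *Arg1* for repair.

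The cells came from ICR mouse neonates whose hindlimb digits were amputated through the second phalangeal element (P2) at postnatal day 3 and received a bead at postnatal day 7. The bead carried FGF8, a fibroblast growth factor, or bovine serum albumin (BSA, 0.1%) as the control, and tissue distal to the P2 stump was collected 24 h later, at postnatal day 8, after its epithelium had been removed. Digits of a treatment (20 digits, 5 mice of both sexes) were pooled and captured once by droplet-based single-cell RNA-seq, so that each treatment is 1 library. Treatment, pool of digits and capture cannot be told apart, no test across samples was possible, and every interval below is a 95% interval for counting error alone. In these libraries each transcript is counted once by a unique molecular identifier (UMI), and a level is given as UMIs per 1000000 UMIs of the cells in question (CPM).

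After filtering, 3252 BSA cells and 6715 FGF8 cells were kept, with medians of 15377 and 12251 UMIs. The libraries shared 6 cell barcodes, none of them in a macrophage-like or monocyte-like cell. Among cells whose sex could be called from transcripts of the sex chromosomes, 79.3% of BSA cells and 24.6% of FGF8 cells were called female, so ratios between the libraries are also given within each sex.

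Cells were clustered without the 10 genes, and clusters were named from other marker genes. Macrophage-like cells (98 BSA, 190 FGF8) carried complement *C1qa* at 2950 CPM (BSA) and 3330 CPM (FGF8), with a UMI in 96.9% and 94.7% of cells. The larger sub-cluster (253 BSA, 474 FGF8) is called monocyte-like, from *Ms4a4c*, *Ccr2* and *Ly6c2*. That name was a close call, since its monocyte markers had a mean log2 fold of 2.85 over all other kept cells against 2.73 for the macrophage markers, and it also held in part *Ctsk*, *Acp5* and *Mmp9*, genes of the bone-resorbing osteoclast. Together the macrophage-like and monocyte-like cells made up 10.8% (9.75 to 11.9%) of BSA cells and 9.89% (9.18 to 10.6%) of FGF8 cells. A further sub-cluster with macrophage and fibroblast markers together (19 BSA, 61 FGF8) was set apart and counted with the other cells, and 17 and 60 of these cells were among the 5% of cells with the highest doublet scores of their library. A low-UMI sub-cluster with macrophage markers (30 BSA and 53 FGF8 cells, with medians of 2909.5 and 2307 UMIs) was left unnamed and also counted with the other cells. Clusters rebuilt in this way can differ from those of the study.

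In GRCm39 coordinates the genes lie on 8 chromosomes: *Mrc1* on chromosome 2 (14234151 to 14336926), *Chil3* on 3 (106054870 to 106074880), *Gpnmb* and *Cd163* on 6 (49013426 to 49047863 and 124281606 to 124307560), *Folr2* and *Lyve1* on 7 (101489195 to 101506401 and 110448585 to 110462460), *Arg1* on 10 (24791118 to 24803817), *Nos2* on 11 (78811613 to 78851080), *Retnla* on 16 (48662895 to 48664824) and *Trem2* on 17 (48653429 to 48661175). RefSeq promoter windows were matched for 7 of the 10 genes (*Folr2* has a pair of start sites), and not for *Arg1*, *Nos2* and *Lyve1*. Each window was read over the 250 bases before the start site, on the earlier assembly GRCm38.p6, for 5 motifs of factors active in myeloid cells. The *Trem2* and *Folr2* windows are shown for genes with most of their UMIs in macrophage-like and monocyte-like cells (*Trem2* 93.5% in BSA and 86.3% in FGF8, *Folr2* 92.0% and 83.8%). The *Retnla* window is shown for a gene that was almost silent there. Each is written from 5′ to 3′ on the gene's strand, with motif matches in capitals.

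*Trem2*, chr17:48346151-48346400, plus strand: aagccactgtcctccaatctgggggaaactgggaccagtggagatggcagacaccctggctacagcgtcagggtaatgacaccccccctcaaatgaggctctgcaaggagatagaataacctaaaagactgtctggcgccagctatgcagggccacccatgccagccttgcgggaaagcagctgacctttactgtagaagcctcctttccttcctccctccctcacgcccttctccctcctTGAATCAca

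*Folr2*, chr7:101845332-101845581, minus strand: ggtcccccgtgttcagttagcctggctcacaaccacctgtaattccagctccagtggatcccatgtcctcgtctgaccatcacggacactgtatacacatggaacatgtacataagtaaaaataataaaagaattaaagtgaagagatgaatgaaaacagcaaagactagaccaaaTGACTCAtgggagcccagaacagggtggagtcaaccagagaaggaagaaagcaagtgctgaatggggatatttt

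*Retnla*, chr16:48842359-48842608, plus strand: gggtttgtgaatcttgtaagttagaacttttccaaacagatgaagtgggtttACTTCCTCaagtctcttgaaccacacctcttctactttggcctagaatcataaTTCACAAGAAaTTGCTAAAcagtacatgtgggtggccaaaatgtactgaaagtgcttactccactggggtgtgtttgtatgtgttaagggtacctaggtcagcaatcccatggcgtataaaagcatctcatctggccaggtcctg

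The match in *Trem2* (starting 9 bases before the start site) and in *Folr2* (74 bases before it) is the AP-1 motif TGANTCA, which is found on either strand in 6.75% of all 32851 windows. *Retnla* held the PU.1 core GAGGAAGT on the minus strand (198 bases before the start, 2.44% of windows), the STAT6 motif (TTC, any 4 bases, GAA; 145 bases before, 5.85%) and the C/EBP motif TTGCNNAA (134 bases before, 9.56%), none of which overlap. The M-box TCATGTG (3.25% of windows) was in none of the 8 windows of these genes, and the windows of *Mrc1*, *Cd163*, *Gpnmb* and *Chil3* and the other *Folr2* window held none of the 5 motifs. A match is a description of the letters and no evidence that a factor binds.

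*Mrc1*, *Cd163*, *Folr2*, *Trem2*, *Chil3*, *Arg1* and *Gpnmb*, 7 of the 10 genes, were more than 2-fold higher in macrophage-like and monocyte-like cells than in all other cells of both libraries. This fold (a log2 ratio above 1) was passed by 18.6% of all genes with at least 10 UMIs in the BSA library and by 18.5% in the FGF8 library, and all 10 genes had at least 10 UMIs in each. *Nos2* passed it in the BSA library alone and *Lyve1* in the FGF8 library alone, while *Retnla* did so in neither. The calls of *Nos2* and *Lyve1* depended on the processing: with classes set per cell from marker UMIs, *Nos2* in BSA was at 0.75 and *Lyve1* in FGF8 at 0.84. With cells thinned to 2000 UMIs, *Retnla* had no UMI left in macrophage-like and monocyte-like cells of either library. Its value of 2.63 in BSA at that depth is an upper bound, since a class without a UMI enters at 3 counts. The value of 2.48 in FGF8 (thinned to 5000 UMIs) started from 1 UMI in those cells, so neither value shows a higher level there.

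**Figure D1:**
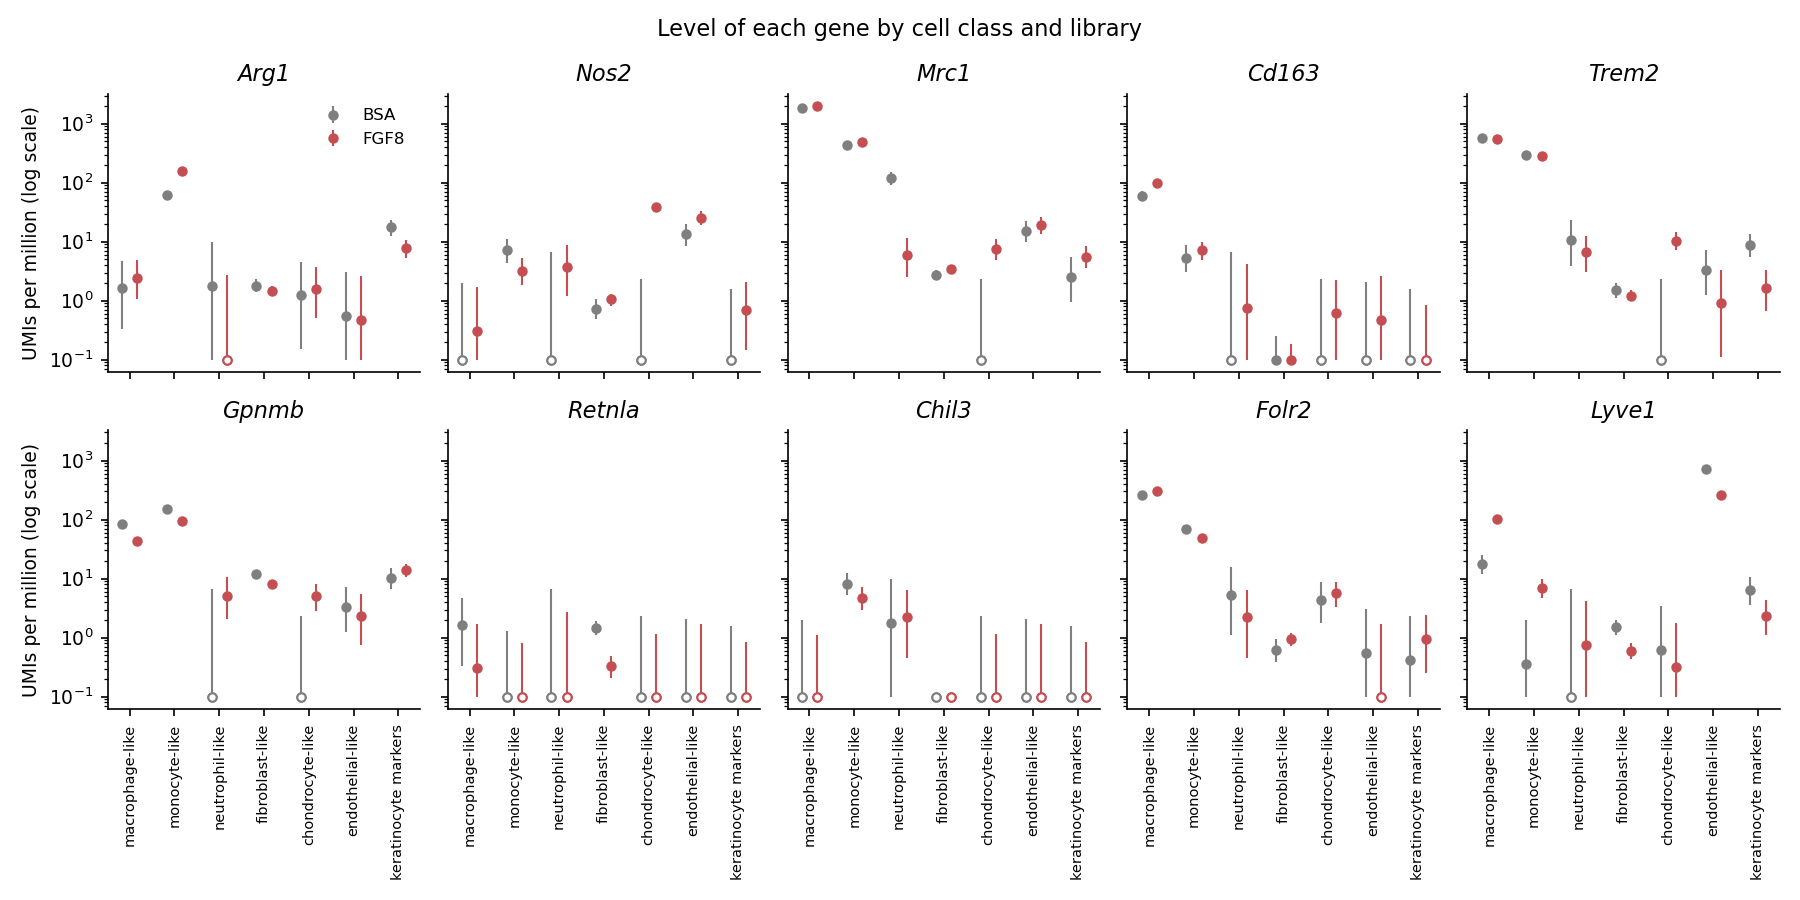
Level of each gene, in CPM on a log axis, in 7 cell classes of the BSA (grey) and FGF8 (red) libraries. Bars are exact Poisson 95% intervals, open circles are classes with no UMI (drawn at 0.1), and values below 0.1 are drawn there too. Of the classes plotted, *Mrc1*, *Cd163*, *Trem2* and *Folr2* are highest in the macrophage-like cells, *Arg1* in the monocyte-like cells, and *Lyve1* in the endothelial-like cells of both libraries.

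Among the named classes, *Mrc1*, *Cd163* and *Folr2* were highest in macrophage-like cells. *Mrc1*, the mannose receptor CD206, was at 1810 CPM in BSA (1750 to 1880) and 1980 CPM in FGF8 macrophage-like cells (1930 to 2030), with a UMI in 92.9% and 89.5% of them. In monocyte-like cells it was at 436 and 493 CPM, so that macrophage-like cells were 4.16-fold (BSA) and 4.02-fold (FGF8) higher. Fibroblast-like cells, which were deeper (medians of 20517 and 18725 UMIs against 17624 and 14674), had a UMI in 3.73% and 5.68% of cells, at 2.77 and 3.47 CPM. The part of free RNA or mixed droplets in these values was not tested. Among the other cells the unnamed low-UMI sub-cluster held *Mrc1* at 2010 CPM (BSA, 1730 to 2320) and 1160 CPM (FGF8), and the mixed sub-cluster at 122 and 586 CPM. BSA neutrophil-like cells were at 120 CPM, but 41 of their 67 UMIs lay in 1 cell.

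*Cd163*, the receptor for haemoglobin bound to haptoglobin, was at 59.8 CPM (49.2 to 72.0) in BSA and 99.2 CPM (88.7 to 111) in FGF8 macrophage-like cells. It was found in a minority of them, 22 of 98 and 48 of 190, and was 11.1-fold (BSA) and 13.9-fold (FGF8) lower in monocyte-like cells. *Folr2*, a folate receptor of resident macrophages, was at 257 CPM (234 to 281) and 307 CPM (288 to 327), in 77.6% and 73.7% of macrophage-like cells. Its level in monocyte-like cells was 68.2 CPM (BSA) and 49.4 CPM (FGF8). The paralog *Folr1* had no more than 2 UMIs in either class of either library.

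*Lyve1*, a hyaluronan receptor known from lymphatic vessels and from a subset of resident macrophages, was highest in endothelial-like cells. Endothelial-like cells held it at 724 CPM (BSA) and 262 CPM (FGF8). Within them, cells with UMIs of at least 2 lymphatic markers were at 1450 CPM (51 BSA cells) and 1170 CPM (18 FGF8 cells), against 22.0 and 12.4 CPM in the rest. Macrophage-like cells held *Lyve1* at 17.8 CPM (12.2 to 25.0) in BSA and 104 CPM (93.0 to 115) in FGF8, and monocyte-like cells at 0.359 and 6.94 CPM. As a whole, 2.42% of the *Lyve1* UMIs of the BSA library and 36.1% of those of the FGF8 library lay in macrophage-like and monocyte-like cells.

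*Trem2* and *Gpnmb* are genes of lipid- and debris-laden macrophages, *Trem2* a receptor for lipids and dead cells and *Gpnmb* a glycoprotein of the lysosome and cell surface. *Trem2* was at 581 CPM (547 to 617) in BSA and 552 CPM (527 to 578) in FGF8 macrophage-like cells and at 293 and 283 CPM in monocyte-like cells. It was thus shared by both classes, with a fold of 1.98 and 1.95 between them. *Gpnmb* was higher in the monocyte-like cells, at 151 CPM (BSA) and 94.3 CPM (FGF8) against 84.0 and 42.7 CPM in macrophage-like cells. It was also the least restricted of the 7, with 11.9 and 8.0 CPM in fibroblast-like cells, which held 39.7% and 40.1% of all its UMIs. The *Trem2* paralogs *Trem1* and *Trem3* had a different pattern, at 424 to 714 CPM in neutrophil-like cells of the 2 libraries and at most 1.53 CPM in macrophage-like cells.

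*Arg1*, the arginase that turns arginine into ornithine, was highest in the sub-cluster called monocyte-like here. It was there at 61.7 CPM (52.8 to 71.7) in BSA and 158 CPM (147 to 170) in FGF8, and at 1.62 and 2.44 CPM in macrophage-like cells (3 and 8 UMIs), a fold of 38.2 and 64.7. Few cells carried it, 36 of 253 and 84 of 474 monocyte-like cells, and the tenth of these cells with most *Arg1* held 94.2% and 93.4% of its UMIs in them. The cluster with keratinocyte markers also held *Arg1*, at 17.5 CPM (BSA) and 7.7 CPM (FGF8). Its mitochondrial paralog *Arg2* was instead highest in neutrophil-like cells, at 864 and 791 CPM, with 59.2 and 48.6 CPM in monocyte-like cells.

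*Nos2*, the inducible nitric oxide synthase, was close to absent from macrophage-like cells, with no UMI in 98 BSA cells (an interval of up to 1.99 CPM) and 1 UMI in 190 FGF8 cells. Monocyte-like cells held 20 UMIs in 9 BSA cells (7.18 CPM) and 15 UMIs in 6 FGF8 cells (3.25 CPM). Most *Nos2* was elsewhere, since the macrophage-like and monocyte-like cells together held 26.7% of its UMIs in BSA and 5.82% in FGF8. Endothelial-like cells held it at 13.4 CPM (BSA) and 25.5 CPM (FGF8), with a UMI in 9.09% and 23.2% of cells. FGF8 chondrocyte-like cells held 122 UMIs (38.3 CPM) in 10 of 141 cells, 43 of them in 1 cell, and the 65 BSA chondrocyte-like cells had none. Of the other nitric oxide synthases, *Nos1* and *Nos3* had at most 4 UMIs in either class of either library.

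*Retnla* and *Chil3* encode secreted proteins that interleukin-4 induces in mouse macrophages, and both were scarce. *Retnla* had 3 UMIs in 1 BSA macrophage-like cell, 1 UMI in FGF8 macrophage-like cells and none in the monocyte-like cells of either library. Its UMIs lay in fibroblast-like cells, 52 UMIs in 6 BSA cells (39 of them in 1 cell) and 23 UMIs in 13 FGF8 cells. *Chil3* had no UMI in macrophage-like cells, where the floor of 3 counts is 1.62 CPM in BSA and 0.916 CPM in FGF8, and 23 and 22 UMIs in 10 and 11 monocyte-like cells. These made up 95.8% and 88.0% of all *Chil3* UMIs. Of their paralogs, *Retnlg* was at 473 CPM in FGF8 and 51.9 CPM in BSA neutrophil-like cells, while *Retnlb* and *Chil4* had at most 1 UMI in a library. *Chil1* was at 285 CPM (FGF8) and 326 CPM (BSA) in neutrophil-like cells and at 238 and 382 CPM in chondrocyte-like cells. In monocyte-like cells *Chil1* was at 33.0 and 37.3 CPM, above *Chil3* there (4.77 and 8.25 CPM).

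Between the classes, 7 of the 10 genes in BSA and 8 in FGF8 had a log2 ratio of macrophage-like over monocyte-like cells past 1 in size, where 23.7% of all genes in BSA and 23.1% in FGF8 were past it. *Mrc1*, *Cd163*, *Folr2* and *Lyve1* were above 1 in each library and *Arg1*, *Nos2* and *Chil3* below -1 in each, while *Gpnmb* was at -0.85 in BSA and -1.14 in FGF8. *Nos2* in BSA and *Chil3* in both libraries had no UMI in macrophage-like cells, so those ratios are bounds, at least 4.44-fold, 5.11-fold (BSA) and 5.21-fold (FGF8) lower in macrophage-like cells.

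At a finer resolution the monocyte-like cells split into a sub-cluster with *Ctsk*, *Acp5* and *Mmp9* (177 BSA and 364 FGF8 cells) and one with *Ly6c2* (78 and 112 cells), and the members split with them. The first is called the *Ctsk* sub-cluster, but only a minority of its cells held those genes. *Ctsk* was found in 16.4% (BSA) and 18.4% (FGF8) of them, *Acp5* in 22.6% and 24.2%, and *Mmp9* in 3.95% and 6.32%. The monocyte gene *Ccr2* was found in 53.7% and 60.7%. The first held *Arg1* at 84.6 CPM (BSA) and 194 CPM (FGF8), *Gpnmb* at 191 and 108 CPM, and *Trem2* at 391 and 317 CPM. The second held *Arg1* at 9.18 and 10.7 CPM. *Chil3* was higher in the second, at 25.3 and 12.8 CPM against 0.516 and 2.69 CPM, and so was *Nos2* in BSA, at 21.8 CPM against 0.516 CPM. In FGF8 *Nos2* was at 1.07 CPM in the second and 3.77 CPM in the first. Under the naming rule the first of these sub-clusters, with 164 and 719 UMIs of *Arg1*, counted as macrophage-like at this resolution, which turns the direction of *Arg1* between the classes.

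**Figure D2:**
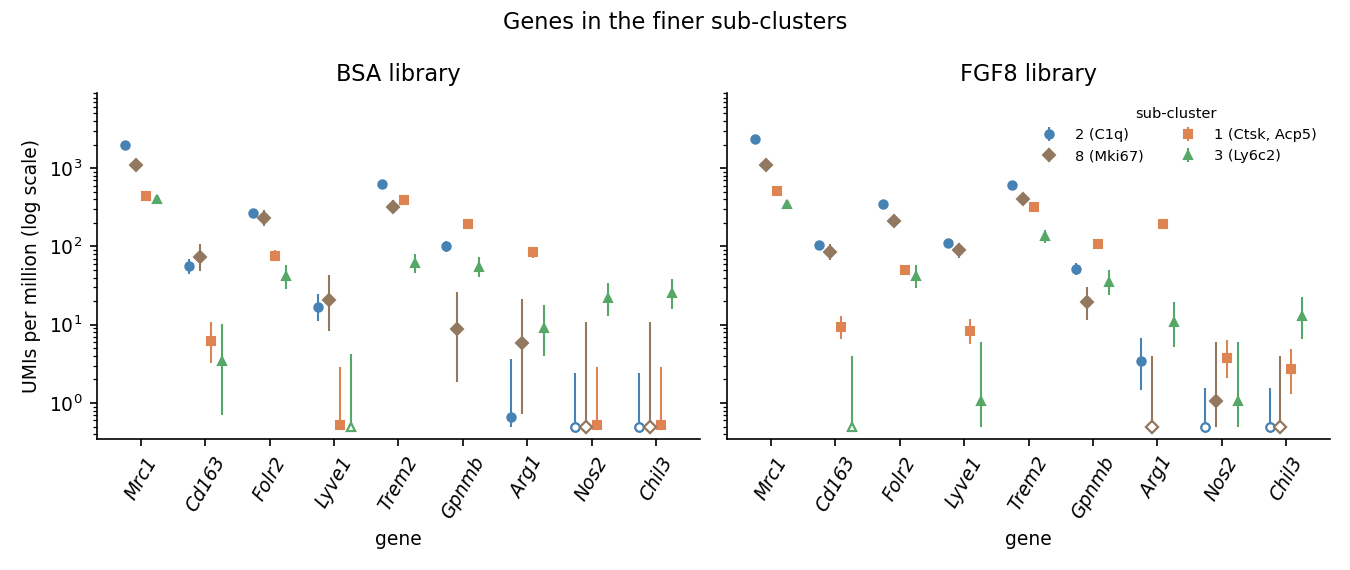
Level of 9 genes, in CPM on a log axis, in 4 finer sub-clusters of each library: the *C1q* macrophage-like cells (2), dividing macrophage-like cells with *Mki67* (8), and the parts of the monocyte-like cells with *Ctsk* and *Acp5* (1) and with *Ly6c2* (3). Bars are exact Poisson 95% intervals, and open symbols (drawn at 0.5) are sub-clusters with no UMI. *Arg1* is highest in sub-cluster 1 of both libraries, and *Mrc1*, *Cd163*, *Folr2* and *Lyve1* in sub-clusters 2 and 8.

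Dividing macrophage-like cells, with *Mki67* at 527 CPM (11 BSA cells) and 509 CPM (33 FGF8 cells), held *Mrc1* and *Folr2* at lower levels than the *C1q* sub-cluster, *Mrc1* at 1090 and 1100 CPM against 1970 and 2330 CPM and *Folr2* at 231 and 210 CPM against 265 and 346 CPM. The intervals of *Folr2* overlapped in BSA (183 to 288 and 240 to 292 CPM) and not in FGF8 (182 to 242 and 322 to 370 CPM). *Cd163* (74.0 against 56.2 CPM in BSA, 84.7 against 105 CPM in FGF8) and *Lyve1* (8.33 to 42.7 against 11.1 to 24.9 CPM in BSA, 70.9 to 110 against 96.7 to 124 CPM in FGF8) had overlapping intervals in both libraries. The dividing cells held 2 UMIs of *Arg1* in BSA and none in FGF8.

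The cells with *Arg1* (36 BSA, 84 FGF8) held the osteoclast genes at lower levels than the other monocyte-like cells. Those genes lay in few monocyte-like cells, *Mmp9* in 3.56% (BSA) and 5.7% (FGF8) of them and *Ctsk* in 15.8% and 17.9%. Of the monocyte-like cells, those with an *Arg1* UMI had *Mmp9* at 0 CPM (BSA) and 4.78 CPM (FGF8), against 193 and 159 CPM in those without. *Ctsk* was at 287 against 728 CPM in BSA and at 20.3 against 627 CPM in FGF8. *H2-Aa*, a gene of antigen presentation by MHC class II, was at 2.19 against 1820 CPM and at 44.2 against 1020 CPM. The cells with *Arg1* were thus lower in *H2-Aa*, *Mmp9* and *Ctsk* in both libraries, although they were the deeper ones (medians of 12377 against 9423 UMIs, and 9722 against 8891). The monocyte genes were lower in them too, *Ccr2* at 182 against 472 CPM (BSA) and 213 against 445 CPM (FGF8) and *Ly6c2* at 344 against 772 CPM and 63.3 against 409 CPM. They were higher in *Trem2* (660 against 221 CPM in BSA, 431 against 251 CPM in FGF8) and in *Spp1*, osteopontin (1050 against 144 CPM, 3260 against 753 CPM). *Spp1* was itself higher in FGF8 than in BSA in both classes, and the part of free *Spp1* RNA was not tested.

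**Figure D3:**
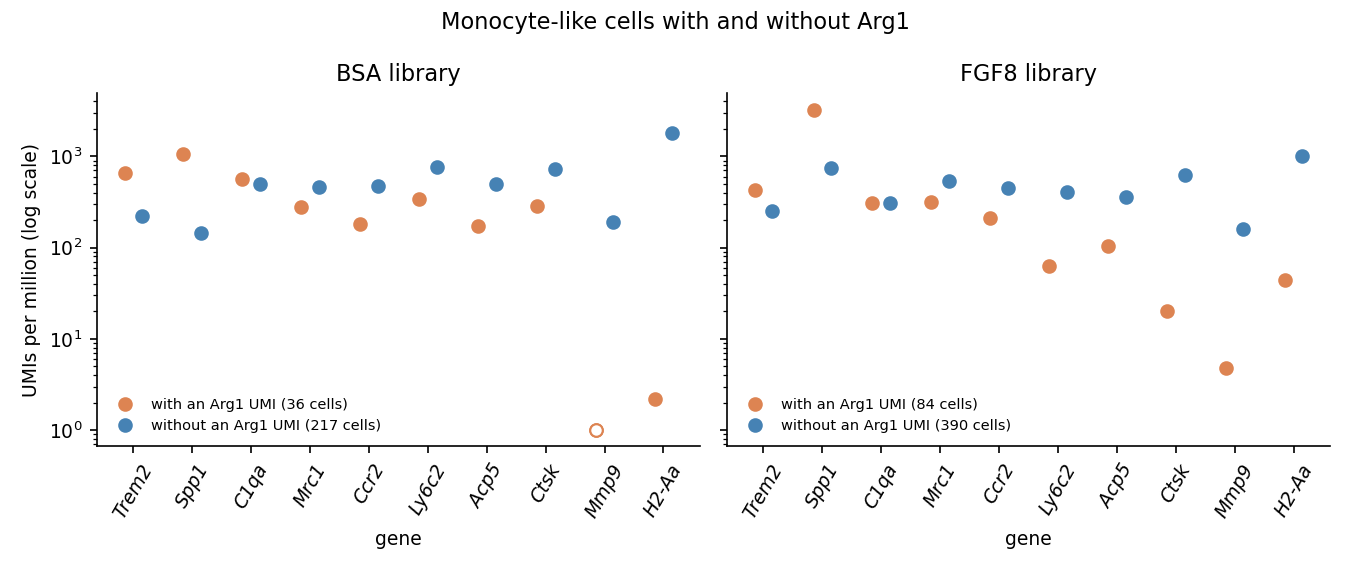
Level of 10 genes, in CPM on a log axis, in monocyte-like cells with (orange) and without (blue) an *Arg1* UMI, in each library; the open circle is a gene with no UMI, drawn at 1. *H2-Aa*, *Mmp9* and *Ctsk* are lower and *Trem2* and *Spp1* higher in the cells with *Arg1* in both libraries.

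Monocyte-like cells with *Gpnmb* were likewise low in MHC class II and high in *Trem2*, but not low in *Ctsk* in BSA (792 CPM against 607 CPM in the rest, and 138 against 624 CPM in FGF8). Monocyte-like cells with a *Gpnmb* UMI (52 BSA, 93 FGF8) had *H2-Aa* at 72.9 and 36.2 CPM, against 2040 and 1080 CPM in the rest, and *Trem2* at 565 and 495 CPM against 197 and 223 CPM. With each cell thinned to 2000 UMIs, so that depth was equal, *Gpnmb* was found in 33.3% of *Trem2*-positive and 8.44% of other monocyte-like cells in BSA, and in 16.3% and 5.92% in FGF8. *Trem2* in turn was found in 8 of 16 *Arg1*-positive and 27.4% of other cells in BSA, and in 25 of 47 and 30.2% in FGF8. No thinned monocyte-like cell held both *Arg1* and *Nos2*, where the product of their shares would give 0.102% of 217 BSA cells and 0.0693% of 451 FGF8 cells, less than 1 cell in each library. *Nos2* cells were instead *Ly6c2*-rich in BSA, at 3030 CPM in the 9 cells with a *Nos2* UMI against 621 CPM in the rest, as were the 10 cells with *Chil3*, at 3550 against 592 CPM. In FGF8 the gap was smaller, 547 against 344 CPM for the 6 cells with *Nos2* and 561 against 341 CPM for the 11 cells with *Chil3*.

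Among macrophage-like cells, *Cd163* was found within the cells that held *Mrc1*. After thinning, each of the 12 BSA and 21 FGF8 cells with *Cd163* also held *Mrc1*, which 77.6% and 78.3% of all macrophage-like cells held. *Folr2* was found in 36.8% of *Mrc1*-positive and 13.6% of *Mrc1*-negative cells in BSA, and in 42.6% and 12.2% in FGF8. Of the thinned cells with *Lyve1*, 2 of 3 in BSA and 17 of 17 in FGF8 held *Mrc1*. Before thinning, the cells with a *Lyve1* UMI (9 BSA, 42 FGF8) had *Mrc1* at 2730 and 3120 CPM against 1690 and 1560 CPM in the rest, and *Folr2* at 703 and 540 CPM against 197 and 221 CPM. Their *Trem2* was lower, at 365 and 435 CPM against 610 and 595 CPM, and the monocyte gene *Ccr2* was at 0 and 1.13 CPM against 47.0 and 46.9 CPM. Lymphatic *Mmrn1* had no UMI in them, and lymphatic *Prox1* was at 0 CPM (BSA) and 4.51 CPM (FGF8).

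The FGF8 and BSA libraries were then compared within each class. Among macrophage-like cells, 7 of the 10 genes reached 10 UMIs, and *Lyve1*, 1 of these 7, was past a log2 ratio of 1 in size. Of all 11799 genes with as many UMIs, 11.1% were past that size, 8.27% above 1 and 2.85% below -1. The median over the 7 genes was 0.26, beside 0.09 over all genes.

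*Lyve1* was at 104 CPM in FGF8 against 17.8 CPM in BSA, a log2 ratio of 2.55 (2.03 to 3.11). A UMI was found in 9.18% (4.29 to 16.7%) of BSA and 22.1% (16.4 to 28.7%) of FGF8 macrophage-like cells, and after thinning in 3.06% and 8.99%. The ratio held within each sex, with 2.99 (2.33 to 3.69) for the female-called cells and 2.33 (1.33 to 3.55) for the male-called ones, and it was 2.1 to 2.99 over the 15 alternatives run. In all other cells of the FGF8 library *Lyve1* was lower than in BSA, at 6.9 against 27.6 CPM. In the endothelial-like cells, which held most of it, the log2 ratio was -1.47 (-1.61 to -1.32), at -1.12 (-1.32 to -0.91) for female-called and -0.19 (-0.55 to 0.18) for male-called cells. The make-up of this class differed between the libraries. Cells with at least 2 lymphatic markers were 51 of 121 in BSA and 18 of 142 in FGF8, with *Lyve1* at 1450 and 1170 CPM within them. The part of this make-up in the ratio was not tested.

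*Cd163* was higher by 0.73 (0.42 to 1.05), or by 1.38 among female-called and 0.89 among male-called cells, but the ratio was -0.08 once cells were thinned to 2000 UMIs. *Folr2* differed by 0.26 (0.10 to 0.42), with 0.49 and 0.12 in the sexes. It was at 0.04 at sub-clustering resolution 0.4, where the class also took in the *Ctsk* sub-cluster, and at 0.38 (0.21 to 0.56) in the *C1q* sub-cluster alone. *Mrc1* differed by 0.13 (0.07 to 0.19) and went opposite ways by sex (0.32 for female-called and -0.14 for male-called cells), as did *Trem2*, at -0.07 (-0.18 to 0.04) over all cells, -0.70 for female-called and 0.09 for male-called ones. *Gpnmb* was lower in FGF8, 42.7 against 84.0 CPM, a log2 ratio of -0.98 (-1.32 to -0.64). That difference lay in the female-called cells (-2.39, -3.38 to -1.54), and the male-called ones were at 0.58 (-0.36 to 1.69), from 10 UMIs in 17 BSA cells. *Arg1*, with 3 and 8 UMIs, was at 0.6 (-1.46 to 3.14).

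**Figure D4:**
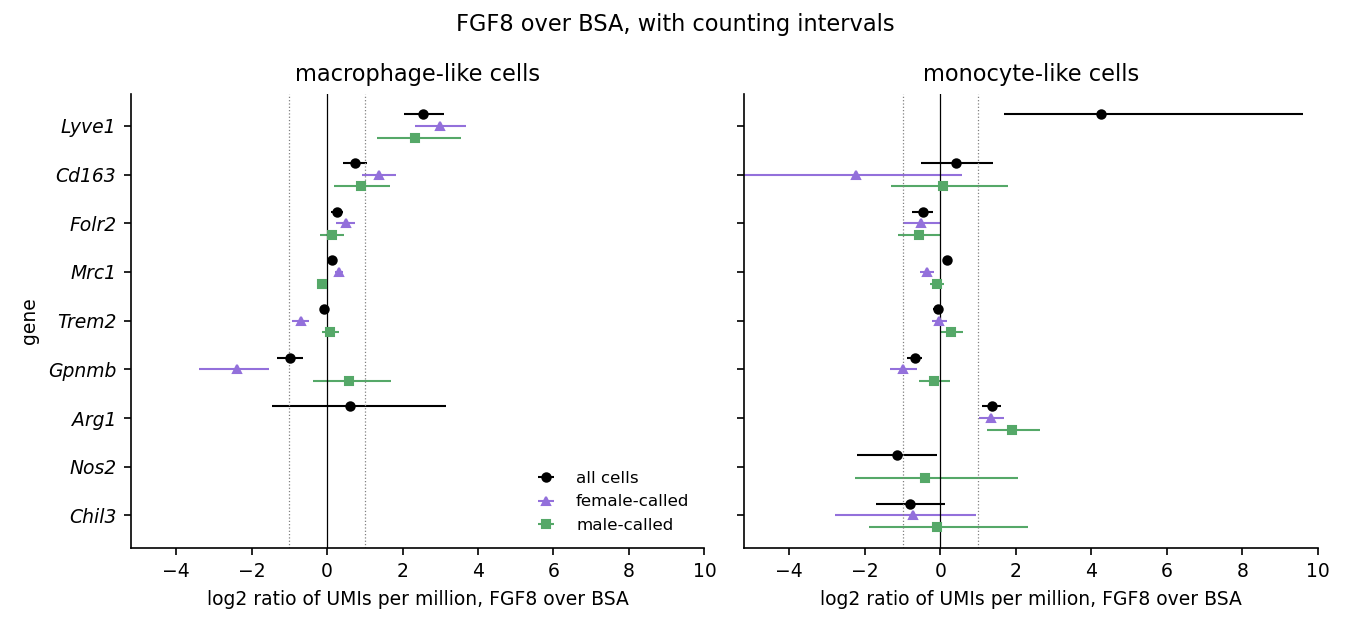
Log2 ratio of CPM, FGF8 over BSA, in macrophage-like (left) and monocyte-like cells (right), for all cells (black circles), female-called (purple triangles) and male-called cells (green squares), for genes with at least 10 UMIs in both libraries together. Bars are exact 95% intervals for counting error, dotted lines mark 1 and -1, and the bar of female-called *Cd163* in monocyte-like cells runs past the left edge. *Lyve1* in macrophage-like cells and *Arg1* in monocyte-like cells are above 1 in both sexes.

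Among monocyte-like cells, 9 of the 10 genes reached 10 UMIs, and 3 were past a log2 ratio of 1 in size, *Arg1* and *Lyve1* upwards and *Nos2* downwards. The background was 12.2% of 12666 genes, 7.65% above 1 and 4.51% below -1. The median over the 9 genes was -0.05, beside 0.02 over all genes. *Arg1* was at 158 CPM in FGF8 against 61.7 CPM in BSA, a log2 ratio of 1.36 (1.11 to 1.60), and within the sexes 1.35 (female-called) and 1.90 (male-called). The share of cells with *Arg1* differed less, 14.2% (10.2 to 19.2%) and 17.7% (14.4 to 21.5%), or 7.37% and 10.4% after thinning. The median of UMIs in the cells that had any was 3 in BSA and 4 in FGF8, and the highest was 37 and 94. In the *Ctsk* sub-cluster alone the ratio was 1.2 (0.95 to 1.45), and in the *Ly6c2* sub-cluster, with 8 and 10 UMIs, 0.22 (-1.27 to 1.76).

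*Nos2* was at -1.14 (-2.21 to -0.10) on 20 and 15 UMIs, and female-called FGF8 cells had none. The finer sub-clusters went opposite ways, with 19 UMIs in BSA and 1 in FGF8 in the *Ly6c2* sub-cluster and 1 in BSA and 14 in FGF8 in the *Ctsk* sub-cluster. *Lyve1* had 1 UMI in BSA and 32 in FGF8, 27 of them in 1 cell, so that 1 UMI in BSA stood against 5 in the rest of the FGF8 cells. *Gpnmb* (-0.68, -0.88 to -0.48) and *Folr2* (-0.46, -0.75 to -0.18) were lower in FGF8. *Folr2* was at -0.61 (-0.93 to -0.29) in the *Ctsk* sub-cluster and at 0.01 (-0.68 to 0.71) in the *Ly6c2* one, the only monocyte-like one at resolution 0.4. *Trem2* was at -0.05 (-0.18 to 0.08) over all cells, at -0.30 (-0.43 to -0.17) in the *Ctsk* sub-cluster and at 1.15 (0.67 to 1.64) in the *Ly6c2* one. *Mrc1* was at 0.18 (0.07 to 0.28) over all cells, a direction that did not hold within the sexes, at -0.35 (female-called) and -0.08 (male-called). *Chil3* (-0.79) and *Cd163* (0.41) had intervals that included 0.

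To place each gene among all others, the 3 genes with the most similar levels over 24 points (14 cell classes, each taken in a library where it held at least 50 cells, on log2(CPM + 10)) were found, as a description without a test, since the points share libraries, their depth and their free RNA. *Trem2* ran with *Ms4a7* (Pearson r = 0.988), *Pf4* and *Ccl12*, *Folr2* with *Ccl12* (0.985), *C1qc* and *C1qb*, and *Mrc1* with *Tmem106a* (0.972), *Ms4a7* and *C3ar1*, all of them macrophage-borne here. *Cd163* ran with *Nxpe5* (0.966), *Slc13a3* and *Fcrls*, and *Gpnmb* with *Mgl2* (0.938), *Cxcl16* and *Trem2* itself. *Chil3* ran with *Ifi205* (0.912), *Scimp* and *Ly6c2*, and *Lyve1* with *Rasgrp3* (0.920), *Cracr2b* and *S1pr1*. The likeness was weaker for *Arg1*, to *Hal* (0.816), *Acp5* and *H2-Aa*, for *Nos2*, to *Ica1* (0.800), *Bdkrb2* and *Plcb1*, and for *Retnla*, to *Igf1* (0.657), *Abca9* and *Gas6*. Over classes *Arg1* thus ran with *Acp5* and *H2-Aa*, although within the monocyte-like cells both were lower in the cells with *Arg1* than in the rest.

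The other genes of these states were read from 6 fixed lists, given as counts and medians, with ratios over cells of both sexes together. In macrophage-like cells the resident list (genes of long-lived tissue macrophages) was lower in FGF8 in 19 of its 22 genes, with a median of -0.24 beside 0.09 for all genes, in the opposite direction to *Lyve1*. Of all 11799 genes with at least 10 UMIs, 6925 were above 0. *Selenop*, which carries selenium, was at -0.98, the lectin *Cd209f* at -1.96 (216 of its 339 BSA UMIs in 1 cell), the chemokine *Ccl8* at -0.80 and the growth factor *Igf1* at -0.59, while *Cd209d*, named here after its value was seen, was the 1 gene above 1, at 3.13 on 2 BSA and 31 FGF8 UMIs. In monocyte-like cells *Cd209d* was at -2.04 (-2.30 to -1.79), on 440 and 177 UMIs. The inflammatory list had 17 genes with enough UMIs, 2 above 1 and 5 below -1, with a median of -0.22. Among these were the interferon-induced chemokine *Cxcl10* (-1.93), the cytokine *Il1b* (-1.43) and the scavenger receptor *Marco* (-1.30). The 2 genes above 1, named after their values were seen, were *Ptgs2*, cyclooxygenase-2 (3.94 on 1 BSA and 27 FGF8 UMIs), and the chemokine *Cxcl9* (1.07), and *Ccl5* was at 0.66 (0.29 to 1.04).

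The alternative activation list (19 genes) had a median of 0.06, with *Fn1*, fibronectin, at 1.03, the interleukin-4 receptor *Il4ra* at 0.87, the factor *Klf4* at 0.88 and the lectin *Clec10a* at -1.19. *Fn1* is also a gene of fibroblasts, and 6 of the 7 fibroblast markers were higher in FGF8 macrophage-like cells, at 610 CPM in sum against 509 CPM in BSA (*Dcn* 39.4 against 21.0 CPM), whose part in the *Fn1* value was not tested. The lipid and lysosome list (21 genes) had a median of -0.21, with *Spp1* at 1.80, the lipase *Lpl* at -1.09, *Lgals3* at -0.73 and *Hmox1* at -0.70. Of the arginine use list (10 genes, median 0.09), *Srm* (1.44) and *Odc1* (0.91), which make polyamines from the ornithine that arginase yields, were higher, *Sms* (0.13) differed little and *Sat1*, which breaks polyamines down, was at -0.58. The antigen presentation list (6 genes) had a median of -0.37, with *H2-DMa* at -0.86, *H2-Eb1* at -0.67, *H2-Aa* at -0.48 and *Cd74* at -0.25. The 1 gene of this list above 0 was *H2-Ab1*, at 0.13 (-0.18 to 0.45).

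In monocyte-like cells, where 6569 of all 12666 genes were above 0, all 7 antigen presentation genes were lower in FGF8, with a median of -0.85 beside 0.02 for all genes. The 8 dendritic cell markers moved with them in sum, from 123 CPM (BSA) to 55.1 CPM (FGF8), with 4 lower (*Flt3* 18.3 and 5.42 CPM, *Cd209a* 80.0 and 21.2 CPM), 3 higher and *Xcr1* without a UMI in either, and their part in the result was not tested. The inflammatory list (19 genes) had a median of -0.40, with *Ccl5* at -2.54. The arginine use list had a median of 0.24, with *Srm* at 1.44 and *Odc1* at 1.01. The alternative activation list (22 genes) had a median of -0.18 and held the widest pair, the chemokines *Ccl24* at 3.06 (19 BSA and 263 FGF8 UMIs) and *Ccl17* at -7.78 (133 and 1 UMIs). Both rested on single cells, since 1 BSA cell held all 133 UMIs of *Ccl17* and 1 FGF8 cell held 130 of the 263 UMIs of *Ccl24*. The resident and the lipid and lysosome lists had medians of -0.16 and -0.11. In the same cells *Spp1* was at 2.05.

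**Figure D5:**
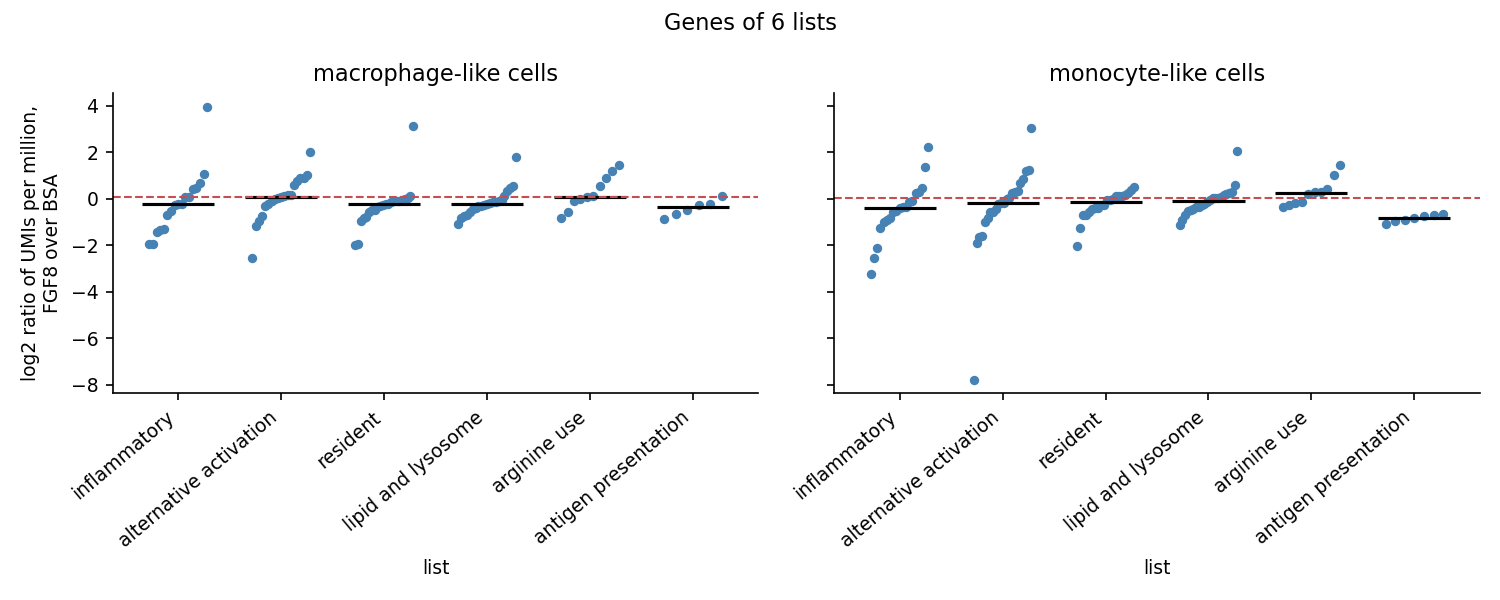
Log2 ratio of CPM, FGF8 over BSA, for the genes of 6 lists in macrophage-like (left) and monocyte-like cells (right). Each point is 1 gene with at least 10 UMIs, black bars are list medians and the dashed red line is the median of all genes. The antigen presentation genes of monocyte-like cells, where 6569 of all 12666 genes were above 0, all lie below 0, with a median of -0.85.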

How the data were processed

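Single-cell libraries were made on a droplet platform, 1 per treatment, and the authors deposited unnormalised counts of UMIs, by gene and barcode, made with Cell Ranger 9.0.0 on a GRCm39 reference. Barcodes with over 200 and under 7500 genes and under 15% mitochondrial UMIs were kept. Libraries were integrated in R 4.3.3 (Seurat 5.3.0, sctransform 0.4.2, 30 principal components, seed 42), without the 10 genes and genes of the sex chromosomes as features, and clustered at resolution 0.05. Macrophage and neutrophil clusters were clustered again at 0.2 (finer sub-clusters at 0.4) and named by the markers with the highest mean log2 fold. The rule that set apart the mixed sub-cluster (fibroblast markers over 5 times the median of the sub-clusters) was chosen after seeing the data. Doublets were scored with Scrublet in Scanpy 1.11.5 and not removed. UMIs were summed per library and class and given as CPM.

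With 1 library per treatment there was no test across samples. Intervals are 95%, exact Poisson for levels, exact binomial (Clopper-Pearson) for shares and conditional binomial for ratios, and cover counting error only. Where a class had no UMI, 3 counts over the class were used as its floor. A ratio was counted when its log2 exceeded 1 in size, over genes with at least 10 UMIs. The ratios and their intervals were checked on simulated Poisson counts, the model that the intervals assume. That check did not cover the number of genes counted or the gathering of a gene's UMIs in few cells. The named genes were the 10 genes, their paralogs, and of each list up to 4 genes with the largest log2 ratio and at least 100 UMIs, of which 1 is not reported here. The genes, lists and rules were chosen with earlier results of these data known. Alternatives covered filters, resolution, depth, weighting, sex, doublet scores, naming and centring, and 3 of them were added after seeing the data.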

Additional observations from a re-analysis of the deposited data

Results flagged for a closer look

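*Mrc1* in macrophage-like cells had a log2 ratio of FGF8 over BSA of 0.32 (female-called) and -0.14 (male-called), opposite directions in the sexes, and the difference was not tested. *Folr2* was at 0.26 in macrophage-like and -0.46 in monocyte-like cells, and this difference was not tested either. At sub-clustering resolution 0.4 the values were 0.04 and 0.01, but the classes held other cells there. The *Ctsk* sub-cluster then counted as macrophage-like (276 BSA and 554 FGF8 cells), which left 78 and 112 monocyte-like cells. By finer sub-cluster, *Folr2* was at 0.38 (0.21 to 0.56) in the *C1q* one, -0.61 (-0.93 to -0.29) in the *Ctsk* one and 0.01 (-0.68 to 0.71) in the *Ly6c2* one. In the barcodes outside the cell filters, which entered no comparison, *Cd163* was at 1.21 (0.05 to 2.55) in FGF8 over BSA, from 30 and 8 UMIs.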

How the results depend on the processing

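No paired analysis was possible because each treatment is 1 library, and there was no replicate to leave out. The number of the 10 genes past a log2 ratio of 1 in macrophage-like cells was 1, and it was 3 with stricter cell filters or in female-called cells, 4 at sub-clustering resolution 0.4, and 2 with cells thinned to 5000 UMIs, with cells weighted equally, without the top 5% of Scrublet scores, with ratios centred on the median, with the mixed sub-cluster counted as macrophages, or without the cell holding most UMIs of each gene. In monocyte-like cells it was 3, and 1 in male-called cells. In macrophage-like cells the lists had 17, 19, 22, 21, 10 and 6 genes with at least 10 UMIs, with *Slc7a2* in both the alternative activation and the arginine use list. Of these genes, 18 were past that size, where 11.1% of all genes were. The number was 11 and 10 with thinning to 2000 and 5000 UMIs and 29 in male-called cells (17 BSA and 120 FGF8 cells). The share of all genes past that size was not taken at the alternative settings, so these counts have no background beside them. The share of macrophage-like and monocyte-like cells moved from 10.8% (BSA) and 9.89% (FGF8) to 12.8% and 12.9% with stricter filters and to 21.6% and 24.1% with classes set per cell from marker UMIs. The FGF8 share was also 10.8% at resolution 0.1 or with the mixed sub-cluster counted as macrophages, and 11.5% in female-called cells. In monocyte-like cells *Nos2* turned to 0.58 and *Lyve1* to -3.0 with classes set per cell, and *Lyve1* had a bound of 0.0 without the highest cell of each library, which left BSA with no UMI. *Arg1* there ranged from 0.22 to 1.9, and *Gpnmb* in macrophage-like cells from -2.39 to 0.58. The 0.22 was at resolution 0.4, where only the *Ly6c2* sub-cluster (78 BSA and 112 FGF8 cells, 8 and 10 *Arg1* UMIs) was monocyte-like. The *Ctsk* sub-cluster, which counted as macrophage-like at that resolution, was at 1.2 (0.95 to 1.45). The cause of these changes was not tested.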
